A study of Mus musculus with 48 samples.

Results

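Tia1 knock-out (KO) cerebellum at 3 months was compared with wild-type (WT) cerebellum of the same age, 3 arrays of each genotype, which are 6 of the 48 arrays of the series. The members were all arrays whose titles name cerebellum and 3 months, and 45037 probe sets were tested on them. A probe set is the group of short oligonucleotides by which the Affymetrix mouse chip reads a transcript, and a gene can have several. The KO mice carry, in the germline and so in every cell, a targeted change at exon 4 of Tia1 that leaves a shortened mRNA and no TIA-1 protein, and they had been crossed for many generations into C57BL6/J. The WT mice were C57BL6/J animals of The Jackson Laboratory by the study's methods, whereas the series' design text calls them littermates, and the labels give C57Bl/6 as the background of both genotypes. No treatment is named for any group. Each array held 1 cerebellum. The KO mice are numbered 122970, 122972 and 122973 and the WT mice 1, 2 and 3, and the titles repeat these numbers in the 6 month samples and in the other tissues, so the labels do not settle whether a number stands for the same animal at both ages. The numbers name separate mice within an age. Each p-value rests on the spread between mice of the same genotype, tissue and age, pooled over all 48 arrays. It is thus not the spread of these 6 arrays alone. Liver is part of it, with a median SD over probe sets of 0.218 (log2), against 0.115 to 0.133 in the other tissues. Tissues that carry the same mouse number were treated as independent in this fit.

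TIA-1 is an RNA binding protein that recognises U-rich sequence. In the nucleus it promotes the use of weak splice sites by the U1 particle, and in the cytoplasm it lowers the translation of mRNAs with AU-rich elements and gathers stalled initiation complexes into stress granules. TIAL1 is its close relative. In the cerebellum, Purkinje cells carry the only output of the cortex, granule cells are the most numerous neurons, and glucocorticoid hormones reach neurons and glia through receptors that act as transcription factors.

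The labelled tissue was borne out by its markers. Pcp2, a Purkinje cell gene, averaged 12.36 (log2) in KO and 12.29 in WT cerebellum at 3 months, against 2.83 to 3.63 in WT spinal cord, midbrain and liver, and Hoxc8, which marks spinal cord, stood at 2.61 in KO and 2.51 in WT cerebellum. Levels are given on the log2 scale throughout, so that a difference of 1 is a 2-fold change. One array stood apart from the other 5. WT 1 had a median level of 4.095, against 4.226 to 4.267 on the other arrays, and it had the lowest value of the 6 arrays at 14601 probe sets. The median SD over probe sets was 0.104 in KO and 0.131 in WT cerebellum, and 0.081 in WT cerebellum without WT 1. Results that rest on WT 1 are therefore given without it as well.

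Of the 45037 probe sets, 247 differed between KO and WT cerebellum, which is 0.548% of those tested (limma, Benjamini-Hochberg adjusted p under 0.05). Of these, 165 were higher in KO mice (0.366%) and 82 were lower (0.182%), and 3579 probe sets had an unadjusted p under 0.05. The higher ones carried the symbols of 106 genes and the lower ones those of 53. The change was at least 2-fold at 18 of the higher and 20 of the lower probe sets. The 3 KO and 3 WT values did not overlap at 242 of the 247, whereas this held for 14.4% of all probe sets tested. Without WT 1, 143 probe sets were called (0.318%), 66 higher and 77 lower, so that the excess of higher calls was not seen. Of the 165 higher ones 60 were called again without this array, and of the 82 lower ones 53. Without KO 122972, 109 were called. When every array was centred on its own median, the calls were 120 higher and 114 lower. The median change over all probe sets was 0.017.

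**Figure D1:**
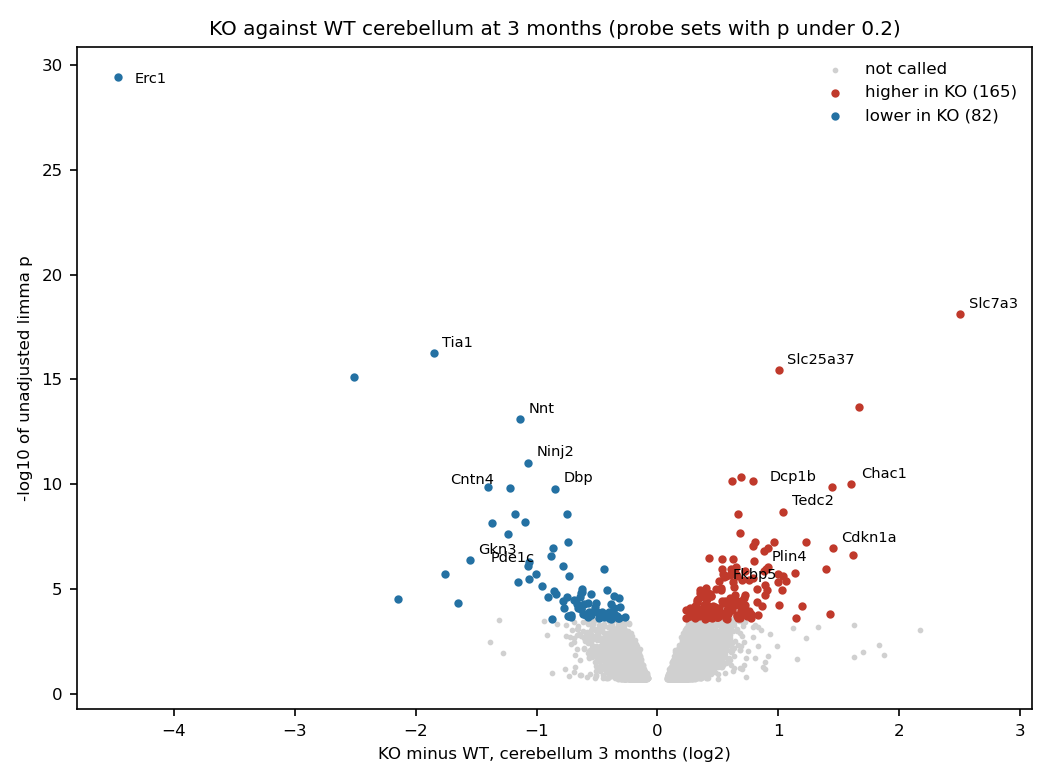
Log2 change between KO and WT cerebellum at 3 months (x axis) against minus log10 of the unadjusted limma p (y axis), 1 point per probe set with a p under 0.2, with the 165 called higher in KO in red and the 82 called lower in blue. Erc1 lies apart at the left with a change of -4.47 and Slc7a3 at the right with 2.51.

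The targeted gene was read by 6 probe sets. The one at exon 4 of Tia1 (1431708_PM_a_at) read 6.38, 6.51 and 6.61 in KO mice, against 8.35, 8.37 and 8.34 in WT mice. The groups were far apart, with a log2 change of -1.85 (SE 0.13, adjusted p = 8.55e-13). The probe sets at the exons near the 3′ end of Tia1 moved the other way. At 1416812_PM_at the KO mice read 9.80, 9.81 and 9.89 and the WT mice 9.24, 9.21 and 9.19 (change 0.62, adjusted p = 3.04e-07), and at 1416813_PM_at the change was 0.69 (adjusted p = 4.18e-05). The other 2 probe sets of these exons, 1416814_PM_at (change 0.50, adjusted p = 0.0453) and 1437934_PM_at (change 0.66, adjusted p = 0.039), were called with all arrays but not without WT 1 (adjusted p = 0.189 and 0.275), and lost the call without any other mouse as well, except KO 122972 for 1416814_PM_at and WT 3 for 1437934_PM_at. The last Tia1 probe set, 1453803_PM_at, differed by -0.03. Transcripts of the 3′ exons were thus more abundant in KO cerebellum while the signal of exon 4 was lower. The 4 probe sets of Tial1 differed by -0.20 to -0.01 and none passed the test. By quantitative PCR the study reported a slight but significant increase of Tial1 in KO cerebellum of this age.

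Genes of chromosome 6, which carries Tia1, were numerous among the called ones. Of 941 genes of this chromosome on the array, 28 were called (2.98%), and they made up 17.7% of the called genes that could be placed on a chromosome, while the chromosome holds 5.56% of the genes. Among the 401 genes from 200 positions before to 200 after Tia1 in gene order, 18 were called (4.49%), against 1.85% of the other genes of the chromosome. The latter share includes a called group just past the edge of this window. Dcp1b, Adipor2, Erc1, 3110021A11Rik, Ninj2 and Bid lay 201 to 221 positions after Tia1. The called genes lay from 361 positions before Tia1 to 363 after it. Chromosome 17 came next with 13 of 785 genes (1.66%). The KO line was made by homologous recombination and backcrossed, and stretches of chromosome beside a targeted gene can then stem from the strain of the stem cells. Their part in these differences was not tested.

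**Figure D2:**
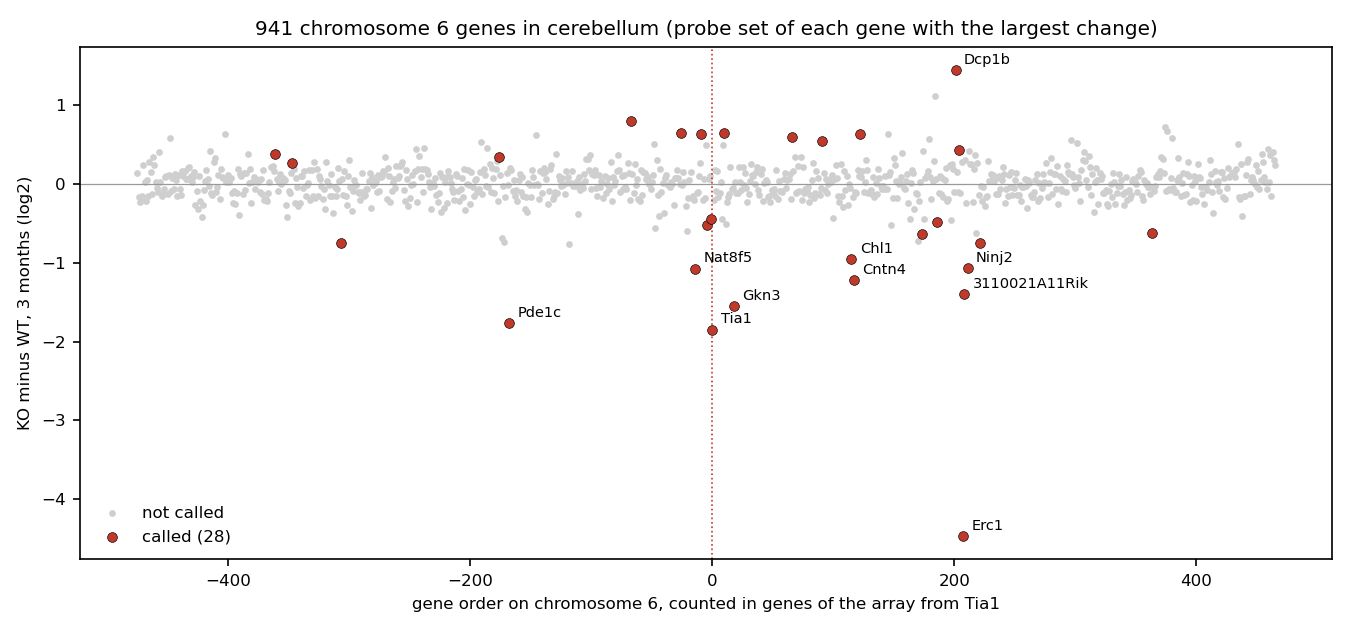
Log2 change between KO and WT cerebellum at 3 months (y axis) for 941 genes of chromosome 6, placed by their order from Tia1 (x axis, in genes of the array), each by its probe set of largest change. The 28 called genes are red, and a group of them with Dcp1b, Erc1 and Ninj2 lies 201 to 221 genes after Tia1.

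The largest change in this tissue was at Erc1, which encodes a scaffold of the presynaptic active zone and of vesicle docking. Its probe set 1441493_PM_at read 3.32, 3.48 and 3.44 in KO mice, against 7.78, 8.02 and 7.84 in WT mice. All KO values lay near the floor of the array, and the change was -4.47 (SE 0.13, adjusted p = 1.71e-25). The other 3 Erc1 probe sets differed by 0.29, 0.18 and -0.03 and were not called, so that only this stretch of the gene's transcripts gave a lower signal. The next gene in order, 3110021A11Rik, read 4.18, 3.98 and 4.17 in KO and 5.21, 5.78 and 5.55 in WT mice (change -1.40, adjusted p = 4.37e-07). Ninj2, an adhesion molecule of the ninjurin family, was lower (change -1.07), with KO values near the floor, from 2.80 to 2.96, and WT values from 3.78 to 4.10 (adjusted p = 5.24e-08). Bid, which encodes a BH3-only member of the BCL2 family, read 2.78, 2.76 and 3.03 in KO and 3.64, 3.67 and 3.49 in WT mice, near the floor in both (change -0.74, adjusted p = 9.62e-05). Dcp1b, a cofactor of mRNA decapping in the same stretch, went the other way at 1444030_PM_at, with 5.64, 5.71 and 5.45 in KO and 3.98, 4.15 and 4.32 in WT mice (change 1.45, adjusted p = 4.37e-07). At its brightest probe set, 1437572_PM_at, Dcp1b differed by 0.28 and was not called.

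Nearer to Tia1, Gkn3, a gastrokine gene, read 3.47, 3.71 and 3.74 in KO and 4.78, 5.30 and 5.49 in WT mice (change -1.55, adjusted p = 0.000493), and Nat8f5, an acetyltransferase gene of the Nat8 family, changed by -1.07 (adjusted p = 0.000832). Pcyox1, the gene next to Tia1 on the array, was lower as well (change -0.44, adjusted p = 0.00103), as was the growth factor gene Tgfa (change -0.51, adjusted p = 0.0294), whose call was lost without any 1 mouse other than KO 122970 (adjusted p from 0.0771 to 0.302). Of the genes around Tia1, Exoc6b, a subunit of the exocyst, was higher (change 0.66, adjusted p = 0.00179), and Tprkb, a subunit of the KEOPS complex that modifies tRNA, was higher at 1425410_PM_at (change 0.63, adjusted p = 0.0115). The call of Exoc6b was lost without WT 1 (adjusted p = 0.056) and that of Tprkb without WT 1, KO 122970 or KO 122973 (adjusted p from 0.062 to 0.15). Further along the chromosome, the cell adhesion genes Cntn4 and Chl1 fell, while Cntn6, which lies between them, had a change of -0.16 and was not called. Cntn4, a contactin of axons, read 4.80, 5.21 and 5.33 in KO and 6.43, 6.33 and 6.24 in WT mice, with no overlap (change -1.22, adjusted p = 4.54e-07), and the other Cntn4 probe set, 1460321_PM_at, changed by -0.84 (adjusted p = 0.00866). Chl1, the close homolog of L1, fell at 1417795_PM_at by 0.95 on the log2 scale (adjusted p = 0.0045), while its brightest probe set, 1435190_PM_at, differed by 0.11. Without KO 122972 the calls of 1460321_PM_at and of Chl1 were lost (adjusted p = 0.102 and 0.0651).

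Pde1c, a calmodulin-dependent phosphodiesterase gene of the same chromosome, was lower at 5 probe sets, with changes from -0.59 to -1.76. At 1444386_PM_at the KO mice read 5.77, 5.86 and 3.43, against 6.41, 6.86 and 7.08 in WT mice. Mouse 122973 stood far below the other KO mice there, and without it the change was -0.97 and still called (adjusted p = 0.0114). At 1440374_PM_at, the brightest of the 5, the values were 7.88, 7.97 and 7.36 in KO and 8.67, 8.61 and 8.56 in WT mice (change -0.88, adjusted p = 0.000343), which without mouse 122973 gave an adjusted p of 0.0138. The other 3 Pde1c probe sets lost their call without this mouse (adjusted p from 0.118 to 0.253).

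Several genes that glucocorticoids are known to raise were higher in KO cerebellum. Of 37 measured genes of a list of 38, receptor genes included, each by its brightest probe set, 11 were called higher and 0 lower, against 0.725% of genes called among the 17097 measured this way, and 32 had a positive change, with a median of 0.41 against 0.02 over all these genes. The 11 were Cdkn1a, Plin4, Arrdc2, Fkbp5, Angptl4, Sgk1, Sult1a1, Mertk, Klf15, Tsc22d3 and Errfi1. The list was chosen with earlier results of these data known, and the study had reported Plin4, Angptl4 and Cdkn1a from these arrays. Its counts and median are thus a description. Errfi1, with a change of 0.34 (adjusted p = 0.0273), lost the call without KO 122972, KO 122973, WT 1 or WT 2 (adjusted p from 0.0614 to 0.233), with arrays centred (0.058) and with the 6 arrays alone (0.361). Without WT 1, 7 of the list were called higher and the median was 0.35. Cdkn1a, which encodes the cell cycle inhibitor p21, read 7.40, 7.61 and 7.30 in KO mice, against 5.91, 5.70 and 5.83 in WT mice (change 1.62, SE 0.26, adjusted p = 0.000335). Plin4, a coat protein of lipid droplets, read 5.38, 5.64 and 5.51 in KO mice, against 4.14, 4.08 and 4.13 in WT mice (change 1.39, SE 0.24, adjusted p = 0.00103). Every KO value of both genes lay more than 1 log2 unit above every WT value. Fkbp5, a co-chaperone of the glucocorticoid receptor, read 6.72, 6.59 and 6.58 in KO and 5.39, 5.59 and 5.49 in WT mice (change 1.14, adjusted p = 0.00149). Angptl4, a secreted inhibitor of lipoprotein lipase, read 5.10, 5.29 and 5.07 in KO and 3.89, 4.24 and 4.22 in WT mice (change 1.04, adjusted p = 0.00176). Both kept their call without WT 1 (adjusted p = 0.0167 and 0.0306).

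Sgk1, a kinase that takes its name from serum and glucocorticoids, read 10.03, 10.08 and 10.41 in KO and 8.76, 9.15 and 9.53 in WT mice (change 1.03, adjusted p = 0.00613). The WT values were spread, and the call was lost without WT 1 (adjusted p = 0.107) or KO 122973 (adjusted p = 0.0625). That of Arrdc2, an arrestin domain gene (change 1.198, adjusted p = 0.0202), was lost without any 1 mouse other than WT 3 (adjusted p from 0.0676 to 0.138). Tsc22d3, which encodes the glucocorticoid-induced leucine zipper, was higher at 2 probe sets (changes 0.48 and 0.79), of which the first, its brightest, lost the call without any 1 mouse other than WT 3 (adjusted p from 0.0714 to 0.199). Of the members that were not called, Zbtb16 (change 0.93, adjusted p = 0.12), Cebpd (0.83, adjusted p = 0.085), Bcl6 (0.715) and Mt1 (0.64, adjusted p = 0.179) had the next largest values. Nr3c1, the receptor gene, had a change of -0.28 (adjusted p = 0.055). In the same list, 13 genes were called in spinal cord and 11 in midbrain at 3 months, with medians of 0.54 and 0.39, and 3 in cerebellum at 6 months, with a median of 0.21. Spinal cord and midbrain came from mice of the same numbers and are not independent of the cerebellum.

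**Figure D3:**
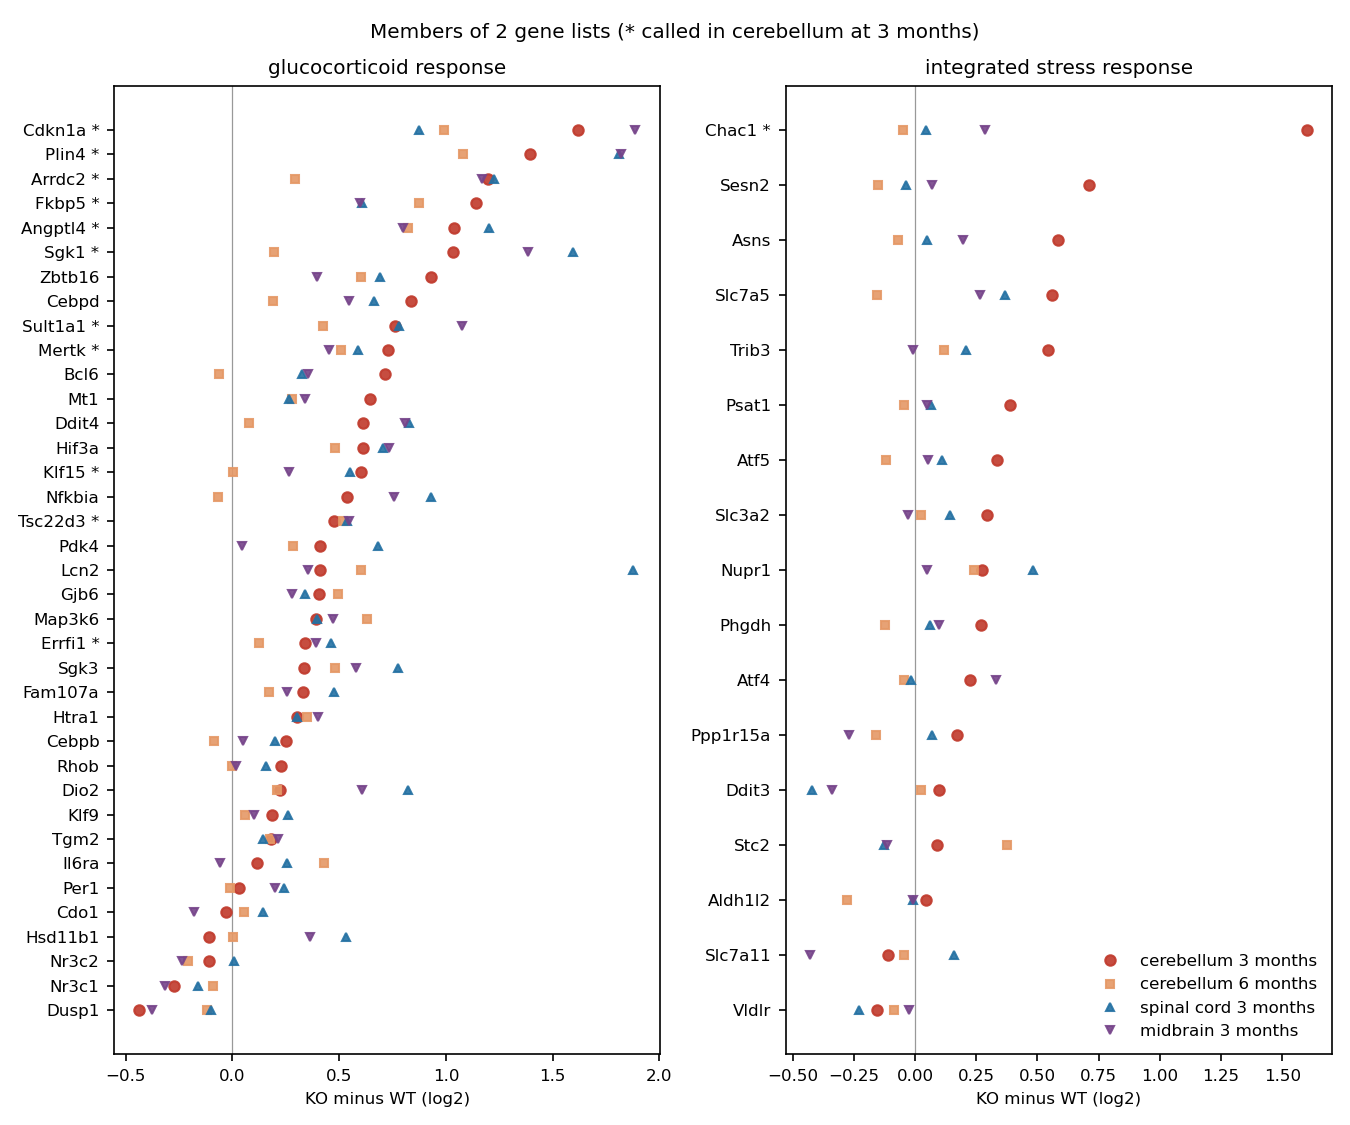
Log2 change between KO and WT (x axis) for the measured members of the glucocorticoid response list (left) and of the integrated stress response list (right), each by its brightest probe set, with cerebellum at 3 months as red circles, cerebellum at 6 months as orange squares, spinal cord and midbrain at 3 months as triangles. Of the glucocorticoid list 32 of 37 red circles lie above 0, and of the stress response list 15 of 17.

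The glucocorticoid receptor binds an inverted repeat, searched here as GNACANNNTGTNC on both strands of the 300 bases around each start site in the RefSeq table of promoters (build GRCm38.p6, 250 bases before to 50 after the start). The letters were found in 145 of 27025 genes (0.537%), in 2 of the 81 higher genes that have a promoter in the table and in 1 of 42 lower ones, Amy1. The 2 were Sgk1 and Txnip, and their windows are shown because both genes rose, with the match in capitals. Of the 10 called members of the glucocorticoid list with a promoter, Sgk1 alone held it, in 1 of its 6 windows. The Sgk1 window lies at chr10:21993640-21993939 and that of Txnip at chr3:96557707-96558006, both on the + strand, and the matches end 175 and 159 bases before the start site.
Sgk1: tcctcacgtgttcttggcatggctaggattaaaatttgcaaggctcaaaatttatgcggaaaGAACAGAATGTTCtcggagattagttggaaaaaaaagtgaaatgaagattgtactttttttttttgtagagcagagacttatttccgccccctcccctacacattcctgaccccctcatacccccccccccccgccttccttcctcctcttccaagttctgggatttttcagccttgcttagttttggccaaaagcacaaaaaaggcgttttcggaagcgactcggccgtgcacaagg
Txnip: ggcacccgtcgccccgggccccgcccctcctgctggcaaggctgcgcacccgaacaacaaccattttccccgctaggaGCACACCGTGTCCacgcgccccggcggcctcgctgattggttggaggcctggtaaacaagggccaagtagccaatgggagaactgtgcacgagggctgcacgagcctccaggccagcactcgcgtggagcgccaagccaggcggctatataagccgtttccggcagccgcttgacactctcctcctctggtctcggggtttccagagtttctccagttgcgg
A match is a run of letters and not a measured binding site.

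Txnip, the thioredoxin interacting protein that also limits glucose uptake, read 7.38, 7.43 and 7.33 in KO mice, against 6.18, 6.55 and 6.67 in WT mice (change 0.92, adjusted p = 0.000165). It belongs to a list of genes raised by fasting and FOXO factors, of which 20 of 23 were measured and 4 were called higher, Txnip, Angptl4, Mfsd2a and Klf15, and 0 lower, where 0.725% of all genes were called. This list too was chosen with earlier results known, and the study had reported Angptl4 and Mfsd2a from these arrays. Mfsd2a, a lipid transporter of the blood-brain barrier, changed by 0.66 (adjusted p = 0.0455), a call that held without WT 1 and with no other mouse left out (adjusted p from 0.0573 to 0.22 without each of the others). Of the 25 measured genes of lipid droplets and lipolysis, Plin4 was the 1 called, and the lipase gene Pnpla7 had a change of 0.36 (adjusted p = 0.278). The 1 probe set that the annotation gives to the lipase gene Pnpla2, 1428591_PM_at, lay near the floor, at means of 2.66 in KO and 2.54 in WT mice. This probe set gives no measure of the gene's change. The study read Pnpla2 by another probe set and reported it higher in KO cerebellum, both there and by quantitative PCR. Of 24 genes of endosomal membrane traffic, Tbc1d24, which encodes a Rab GTPase regulator of synaptic vesicles, was the 1 called. It read 8.78, 8.68 and 8.65 in KO mice, against 7.49, 7.88 and 7.84 in WT mice (change 0.96, adjusted p = 9.62e-05). Among cell cycle regulators, 4 of 31 measured genes were called higher and 0 lower, Cdkn1a, Tedc2, Ccnf and Nde1, of which Cdkn1a and Tedc2 were called without WT 1. The study had reported Cdkn1a, Ccnf and Nde1 from these arrays before this list was chosen. Tedc2, a centriolar protein gene, read 7.74, 7.73 and 7.56 in KO and 6.51, 6.61 and 6.78 in WT mice (change 1.04, adjusted p = 5.5e-06). Tedc2, Ccnf and Tbc1d24 lie close together on chromosome 17.

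The largest increase was at Slc7a3, which encodes a carrier of the cationic amino acids arginine and lysine. It read 6.33, 6.49 and 6.37 in KO mice, against 3.89, 3.78 and 4.002 in WT mice. The groups were separated by more than 2 log2 units (change 2.51, SE 0.15, adjusted p = 1.78e-14), and the value without WT 1 was the same. Chac1, which degrades glutathione and is a target of the transcription factor ATF4, was higher as well, with 6.04, 6.17 and 6.16 in KO and 4.60, 4.35 and 4.61 in WT mice (change 1.60, SE 0.18, adjusted p = 3.67e-07). ATF4 drives the integrated stress response, in which amino acid shortage or misfolded protein slows translation. Of 17 measured genes of this response, each by its brightest probe set, Chac1 was the 1 called, 15 had a positive change and 9 had an unadjusted p under 0.05. Of all genes, 9.38% had such a p. The median was 0.27 here, against -0.05 in cerebellum at 6 months. The list also names Mthfd2, which was not counted, since 1419253_PM_at and 1419254_PM_at carry the symbols of both Gsn and Mthfd2. Both probe sets were called higher (changes 0.92 and 0.999), with changes of -0.06 and 0.20 at 6 months. Sesn2, a stress-induced inhibitor of mTORC1 signalling, passed at its other probe set, 1425139_PM_at, with 5.15, 5.23 and 5.10 in KO and 4.19, 4.45 and 4.69 in WT mice (change 0.72, adjusted p = 0.00887), but not without WT 1 (adjusted p = 0.126). Asns, the asparagine synthetase gene, had 9.18, 9.33 and 9.25 in KO and 8.76, 8.59 and 8.66 in WT mice, which did not overlap, but its change of 0.58 did not pass the test (adjusted p = 0.524). The spread behind this p is pooled over all tissues, liver included, and does not describe these values alone. Slc7a5, a carrier of large neutral amino acids, had a change of 0.56 (adjusted p = 0.418).

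Of 17 measured genes for cytosolic enzymes that charge tRNAs with their amino acids, a family that was chosen after its values were seen, 3 were called higher and 0 lower, and the median change was 0.15. Of all genes, each by its brightest probe set, 0.725% were called, and their median change was 0.02. Sars changed by 0.37 (adjusted p = 0.0313), Gars by 0.35 (adjusted p = 0.0404) and Mars1 by 0.38 (adjusted p = 0.0194). The other 14 had changes from -0.05 (Hars) to 0.30 (Wars). Gpt2, a mitochondrial alanine aminotransferase, changed by 0.38 (adjusted p = 0.025). Of Sars, Gars, Mars1 and Gpt2 none was called without WT 1 (adjusted p from 0.0967 to 0.571), and Gars was not called without any 1 KO mouse either. Gars and Mars1 had their lowest value in WT 1, at 9.10 and 8.12. The composite C/EBP-ATF element, the sequence through which ATF4 acts on many of its targets, was searched as TGATGNAA on both strands of the same windows. It was found in 1219 of the 27025 genes (4.51%), in 6 of 15 genes of the integrated stress response list (40%), in 4 of 81 higher genes (4.94%: Chac1, Fancl, Gars and Magi1) and in 1 of 42 lower ones, Smim10l1. The share among higher genes was thus near that of all genes. The windows of Chac1 (chr2:119350992-119351291) and Gars (chr6:55037751-55038050), both on the + strand, are shown because they belong to this group, with the match, which reads in the opposite direction, in capitals. The matches end 185 and 22 bases before the start site.
Chac1: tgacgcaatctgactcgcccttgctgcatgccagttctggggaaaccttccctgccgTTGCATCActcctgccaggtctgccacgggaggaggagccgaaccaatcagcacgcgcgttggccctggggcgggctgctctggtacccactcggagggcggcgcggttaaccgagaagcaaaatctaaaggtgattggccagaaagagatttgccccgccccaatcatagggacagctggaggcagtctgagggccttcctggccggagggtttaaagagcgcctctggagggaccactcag
Gars: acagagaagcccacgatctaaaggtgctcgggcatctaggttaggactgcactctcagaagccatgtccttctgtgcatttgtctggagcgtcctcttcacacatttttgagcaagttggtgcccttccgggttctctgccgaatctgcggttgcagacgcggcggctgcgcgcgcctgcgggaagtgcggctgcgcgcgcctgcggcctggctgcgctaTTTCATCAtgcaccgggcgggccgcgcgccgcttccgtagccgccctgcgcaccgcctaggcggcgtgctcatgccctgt

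At 6 months, some of these genes had about the level of the KO mice of 3 months in both genotypes. Slc7a3 averaged 6.40 in KO mice of 3 months and 3.89 in WT mice of 3 months, and 6.30 in KO and 6.49 in WT cerebellum at 6 months. Chac1 averaged 6.12 in KO and 4.52 in WT mice at 3 months, and 6.03 in KO and 6.08 in WT mice at 6 months. In both genes the 3 WT mice of 3 months were below all other cerebellum samples. In spinal cord and midbrain Slc7a3 had the same level in every group, with means of 5.38 to 5.51 and 7.59 to 7.80. Plin4 averaged 5.51 in KO and 4.12 in WT mice at 3 months, and 6.48 in KO and 5.40 in WT mice at 6 months, so that its WT level of 6 months was near the KO level of 3 months. The arrangement was not confined to these genes. The WT level of 3 months lay beyond both groups of 6 months at 149 of the 165 higher and 74 of the 82 lower probe sets. For the KO level of 3 months this held at 77 and 37. These counts are a description, since the sets were chosen at 3 months.

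**Figure D4:**
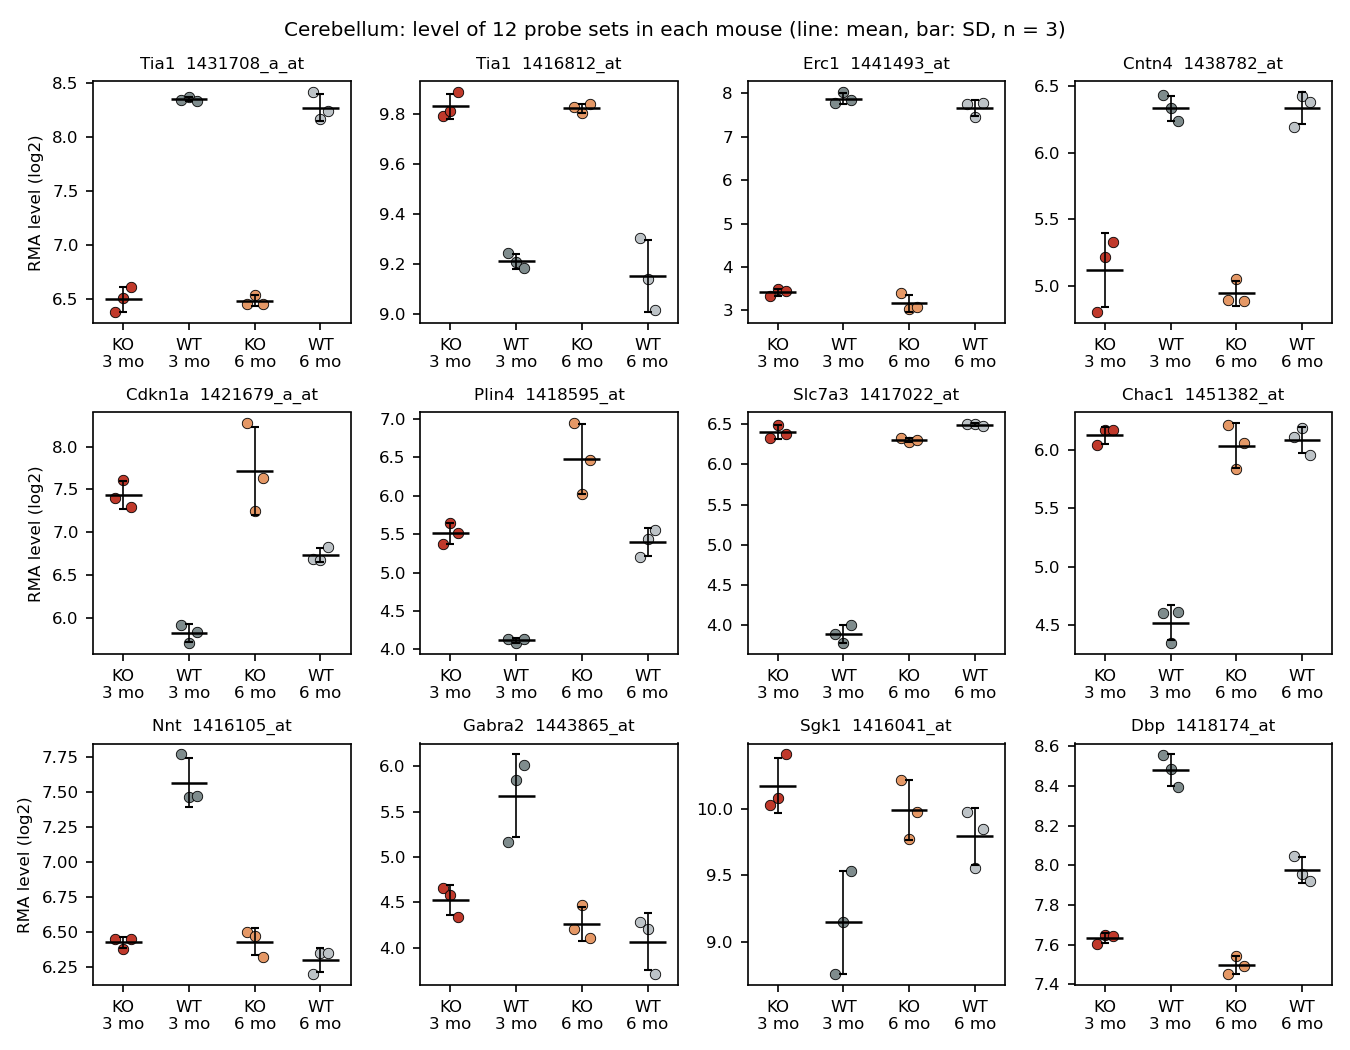
RMA level (y axis, log2) of 12 probe sets in each cerebellum sample, KO and WT at 3 months and then KO and WT at 6 months, with the mean as a line and the SD as a bar (n = 3). At Slc7a3 and Chac1 the WT mice of 3 months lie below the other 3 groups, at Nnt and Gabra2 above them, and at Tia1, Erc1 and Cntn4 each KO group lies apart from the WT group of its age.

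Among the lower genes, Nnt, the mitochondrial transhydrogenase that makes NADPH, showed the same arrangement with the opposite sign. It read 6.45, 6.38 and 6.45 in KO mice, against 7.77, 7.46 and 7.47 in WT mice (change -1.14, SE 0.10, adjusted p = 4.99e-10). At 6 months it averaged 6.43 in KO and 6.30 in WT cerebellum. The other Nnt probe set, 1456573_PM_x_at, changed by -0.87 (adjusted p = 0.000165). Nnt was lower in KO spinal cord and midbrain of 3 months too (changes -1.19 and -0.89). Gabra2, the alpha 2 subunit of the GABA-A receptor, read 4.65, 4.58 and 4.34 in KO mice, against 5.16, 5.85 and 6.02 in WT mice at 1443865_PM_at (change -1.15, adjusted p = 0.00283), and averaged 4.26 in KO and 4.07 in WT mice at 6 months. The WT mice of 3 months were again the group that stood apart. C57BL/6J mice are known to lack part of Nnt and to carry an intronic deletion that lowers Gabra2, whereas other C57BL/6 substrains do not. The substrain of the WT mice of each age was checked by no value here, and its part in the differences was not tested.

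Kcnab3, a beta subunit of voltage-gated potassium channels, read 4.43, 4.49 and 4.48 in KO and 5.34, 5.23 and 5.19 in WT mice (change -0.79, adjusted p = 0.000847), against a change of 0.23 at 6 months. Rasal1, a Ras GTPase activating protein, changed by -0.75 (adjusted p = 0.0107), against 0.24 at 6 months. Slc25a37, the mitochondrial iron importer mitoferrin, was higher, with 8.92, 8.97 and 8.97 in KO and 7.79, 7.92 and 8.15 in WT mice (change 1.00, adjusted p = 4.17e-12), against a change of 0.09 at 6 months. When KO mice of 3 months were set against WT mice of 6 months, a comparison chosen after seeing the data that uses the same 3 KO arrays and in which genotype and age differ together, the changes were 0.07 for Kcnab3, 0.20 for Rasal1 and -0.18 for Slc25a37, and all 3 had turned sign.

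The difference between the ages was tested directly, as the KO minus WT change at 3 months minus that at 6 months. It passed at 26 probe sets (0.0577%), 17 with the more positive change at 3 months and 9 with the more negative one. The 2 ages share no array. Slc7a3 (difference 2.69, SE 0.21, adjusted p = 2.14e-10), Chac1 (1.65, SE 0.25, adjusted p = 0.00122) and Nnt (-1.27, SE 0.14, adjusted p = 1.23e-06) were among them, each with a change at 3 months and none of its size at 6 months. In others the larger change was at 6 months. Meg3, a noncoding RNA of an imprinted locus, averaged 9.76 in KO and 9.87 in WT mice at 3 months, and 7.997 in KO and 9.80 in WT mice at 6 months, so that the difference of 1.70 (adjusted p = 0.00156) came from the KO mice of 6 months. Gpc6, a glypican, was lower at both ages at 1428774_PM_at, with a change of -0.91 at 3 months, which did not pass the test (adjusted p = 0.13), and one of -2.72 at 6 months, and a dimmer Gpc6 probe set, 1419688_PM_at, was called at 3 months (change -0.55, adjusted p = 0.039; without WT 1 0.0874). Wdfy1, an endosomal protein that binds phosphatidylinositol 3-phosphate, had changes of 0.39 to 0.47 at 3 probe sets at 3 months, of which none passed the test (adjusted p from 0.257 to 0.474). The study reported these probe sets as significantly higher in KO cerebellum of this age. It also reported more Wdfy1 mRNA there by quantitative PCR, and more of the protein in the fraction dissolved by SDS. At 1437358_PM_at Wdfy1 averaged 8.44 in KO and 8.04 in WT mice at 3 months, and 8.47 in KO and 6.93 in WT mice at 6 months, a difference between the ages of -1.15 (adjusted p = 0.0374).

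**Figure D5:**
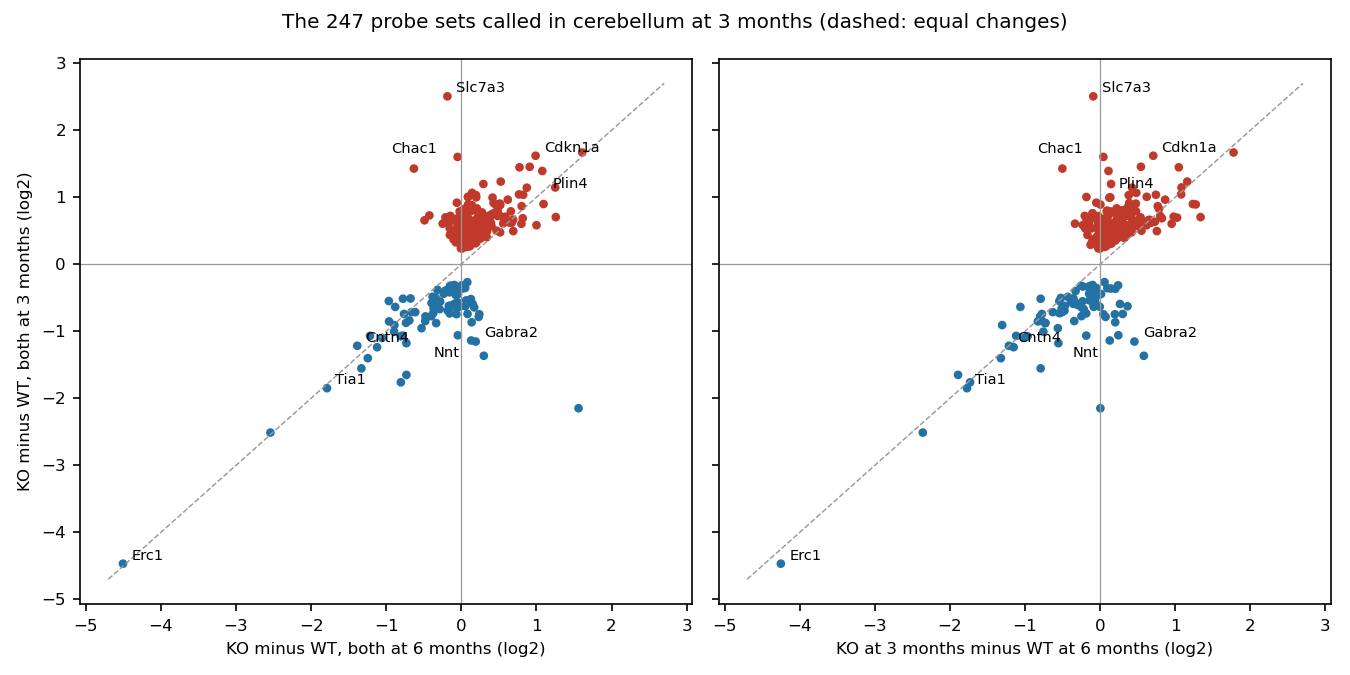
Log2 change between KO and WT cerebellum at 3 months (y axis) of the 247 called probe sets, against the change at 6 months (left, x axis) and against the KO mice of 3 months minus the WT mice of 6 months (right, x axis), with the dashed line marking equal changes. Erc1, Tia1 and Cntn4 lie near the line in both, while Slc7a3, Chac1 and Nnt lie near 0 on the x axes. Gabra2 lies at 0.19 on the left x axis and at 0.46 on the right one.

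At 6 months 82 probe sets were called in cerebellum (0.182%). Of the 165 higher ones of 3 months, 127 had a positive change at 6 months and 19 were called higher. Of the 82 lower ones, 64 had a negative change and 20 were called lower. The median change of the 2 sets at 6 months was 0.14 and -0.26, against 0.58 and -0.66 at 3 months (a description, since the sets were chosen at 3 months). Erc1 (change -4.50), the exon 4 of Tia1 (-1.79), Cntn4 (-1.39), Ninj2 (-1.22), 3110021A11Rik (-1.25), Bid (-0.76) and Tedc2 (0.77) were called at both ages.

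Against the spinal cord of 3 months, 20 probe sets differed in their KO effect (0.0444%), 7 with the more positive and 13 with the more negative change in cerebellum, and against midbrain 6 did (0.0133%), 5 and 1. Slc7a3 led in both, with differences of 2.53 (adjusted p = 7.17e-10) and 2.49 (adjusted p = 2.23e-09), since its change was -0.02 in spinal cord and 0.02 in midbrain. The change of the Erc1 probe set differed by -2.72 from spinal cord and by -1.999 from midbrain on the log2 scale (adjusted p = 6.57e-13 and 4.12e-09). Its KO level was near the floor in all 3 tissues, with 3.41 in cerebellum, 3.1 in spinal cord and 2.95 in midbrain, against WT levels of 7.88, 4.84 and 5.42, so that the size of each change follows the WT level of the tissue. Chac1 differed from spinal cord by 1.56 (adjusted p = 0.0019). Jun, an immediate early gene, had changes of 0.26 in cerebellum and -0.50 in midbrain at 1448694_PM_at, a difference of 0.76 (adjusted p = 0.0354). This call was lost with arrays centred (adjusted p = 0.149) or without any 1 of 7 of the 12 arrays, KO 122970, KO 122972 and WT 2 of cerebellum and KO 122970, KO 122973, WT 1 and WT 3 of midbrain (adjusted p from 0.0536 to 0.186). Of the negative differences from spinal cord, those of the chitinase-like genes Chil3 and Chil4 and of the neutrophil protease Mmp8 came from increases in KO spinal cord (changes 2.37, 2.56 and 2.02), while in cerebellum these genes lay between 2.59 and 2.87 in both genotypes.

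Genes of the processes in which TIA-1 acts, and those of the other lists in this paragraph, were called in counts of 0 or 1 a list. Over all genes, 0.725% were called and 9.38% had an unadjusted p under 0.05. Of 28 measured genes of stress granules and 31 of decapping, deadenylation and P-bodies, 0 were called by their brightest probe set, with 3 and 4 at an unadjusted p under 0.05. Of 16 genes for proteins that bind AU-rich elements, the 1 called was Tia1 itself. Of 14 measured genes for cytokines that TIA-1 is known to control and other inflammatory factors, 0 were called and 2 had an unadjusted p under 0.05. Of 17 genes of the presynaptic active zone, 0 were called by this probe set, Erc1 included, whose lower signal was at another one. Of 25 genes of contactins and synaptic adhesion, Cntn4 was the 1 called, of 14 of the BCL2 family Bid, of 20 p53 targets Cdkn1a, and of 16 ionotropic receptor genes Gabra2. Of 22 measured ataxia genes and 16 heat shock genes, 0 were called, with 1 and 1 at an unadjusted p under 0.05.

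Of 19 measured genes of the circadian clock, Dbp fell and Npas2 rose. Dbp, a transcription factor of clock output, read 7.60, 7.65 and 7.64 in KO mice, against 8.55, 8.49 and 8.40 in WT mice (change -0.85, SE 0.10, adjusted p = 4.6e-07), and its call did not depend on WT 1 (adjusted p = 2.27e-05). Npas2, a partner of BMAL1 that can replace CLOCK, averaged 4.05 in KO and 3.43 in WT mice (change 0.62, adjusted p = 0.0273), and lost the call without WT 1 or any 1 KO mouse (adjusted p from 0.0618 to 0.222). The core genes Clock, Arntl, Per1, Per2, Per3, Cry1 and Cry2 had changes from -0.25 to 0.28 and none was called. The time of day at which tissue was taken is not given in the sources used here. Of 21 immediate early genes, 0 were called and 3 had an unadjusted p under 0.05. Fos, which had the largest change of them, read 7.49, 7.91 and 7.56 in KO and 7.66, 8.60 and 9.32 in WT mice, which overlapped (change -0.88, adjusted p = 0.773). Of 15 interferon response genes, 1 had a positive change, with a median of -0.22, 0 were called and 4 had an unadjusted p under 0.05. Ifit3 had the largest change, -0.61 (adjusted p = 0.288).

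Of the 20 lists of cell type markers, none had a gene called by limma at its brightest probe set, and at most 3 genes of a list had an unadjusted p under 0.05. Over all lists 14 of 155 measured markers had such a p, where 9.38% of all genes had one and 0.725% were called, so that the markers stood near the share of all genes. For 13 measured Purkinje cell markers the mean level over the list ran from 10.11 to 10.16 in KO mice and from 9.96 to 10.09 in WT mice, with a median change of 0.08. For 14 granule cell markers it ran from 9.76 to 9.85 in KO and from 9.64 to 9.79 in WT mice, with a median change of 0.11. Without WT 1 the medians were 0.03 and 0.04. Microglial markers had means from 5.08 to 5.14 in KO and from 5.10 to 5.13 in WT mice. The choroid plexus list was the one that varied most, within both genotypes. Its 11 markers had means from 4.19 to 7.39 in KO mice and from 4.14 to 7.39 in WT mice, and Ttr, the transthyretin gene that marks this epithelium, read 12.85, 8.15 and 7.02 in KO mice, against 12.52, 12.98 and 6.44 in WT mice. This spread of over 5 log2 units among mice of 1 genotype left Ttr with a change of -1.31 (adjusted p = 0.929). In whole tissue, fewer cells of a type and less RNA per cell cannot be told apart.

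Of the called probe sets, 41 of the higher and 20 of the lower ones carry no gene symbol in the annotation used. The largest of each, chosen after their values were seen, were 1443913_PM_at, with 5.85, 6.03 and 5.89 in KO and 4.05, 4.30 and 4.41 in WT mice (change 1.67, adjusted p = 1.52e-10), and 1447062_PM_at, with 4.42, 3.70 and 4.22 in KO and 6.65, 6.36 and 6.85 in WT mice (change -2.51, adjusted p = 7.2e-12). Both had changes of like size at 6 months, 1.61 and -2.54. With 3 mice of each genotype the smallest p of an exact 2-sided permutation test is 0.1, so that the calls rest on the spread that limma shares over all probe sets and groups.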

How the data were processed

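RNA of 1 tissue of 1 mouse was hybridised to 1 Affymetrix HT Mouse Genome 430 2.0 array after 3′ labelling. The authors deposited log2 expression values by probe set from Robust Multichip Average (RMA) in R 2.14.0, a method that subtracts background, equalizes the distributions of the arrays and combines the oligonucleotides of a probe set. They were used as deposited, and the table held 0 columns of other samples. The scanner intensities were not analysed here. Of 45141 probe sets, 104 controls were left out. By the platform annotation, 28898 of the others carry 1 gene symbol, 551 several and 15588 none, and 28689 were matched to RefSeq genes, which gave chromosome and gene order.

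A linear model with 16 group means was fitted to all 48 arrays with limma 3.58.1 in R 4.3.3, with 32 residual and 4.97 prior degrees of freedom. Differences between KO effects were contrasts of this model. P-values were adjusted by Benjamini-Hochberg over 45037 probe sets, and adjusted p under 0.05 was called. The members and lists were chosen with earlier results of these data known. Named genes are the Tia1 and Tial1 probe sets, genes the study names from its arrays, the 15 largest changes in each direction among called, non-overlapping probe sets with 1 symbol, called list members and the 4 of each list that changed most, called genes of chromosome 6, and the 5 largest called differences in each direction. The fit was repeated with fewer arrays, array weights, other normalizations, filters and thresholds, the mouse as a block, and each mouse left out, and, chosen after seeing the data, with the WT cerebellum of 6 months as control.

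The steps were tested on simulated data made like this comparison, with 45037 probe sets. They called 61.2% of those changed 1.5-fold, 92.5% of those changed 2-fold and 100% of those changed 3-fold, with 14 unchanged ones. The simulated arrays had independent noise with the same spread for all arrays at a probe set, and none stood apart as WT 1 did. These rates thus do not cover the effect of such an array. The number of arrays limits the precision.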

Additional observations from a re-analysis of the deposited data

Results flagged for a closer look

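The results below had a change between KO and WT that differed between cerebellum at 3 months and another age or tissue by limma's test of the difference itself (adjusted p under 0.05). Slc7a3 differed by 2.69 from cerebellum at 6 months, by 2.53 from spinal cord and by 2.49 from midbrain. Chac1 differed by 1.65 from 6 months and by 1.56 from spinal cord. Gpc6 (1.81), Meg3 (1.70) and 4930447F24Rik (1.39) had the more positive change at 3 months, and Nnt (-1.27), Wdfy1 (-1.15 and -1.09 at 2 probe sets) and the unnamed 1427820_PM_at (-3.71) and 1455444_PM_at (-1.67) the more negative one. Erc1 differed by -2.72 from spinal cord and by -1.999 from midbrain. Ninj2, with changes of -1.07 in cerebellum and -1.999 in spinal cord, differed by 0.93. The KO levels of Erc1 and Ninj2 in cerebellum lay near the floor of the array, which bounds the size of these differences. The unnamed 1439312_PM_at differed by 2.04 from spinal cord and by 1.85 from midbrain, with a change of 0.70 in cerebellum and changes of -1.34 and -1.14 there, and 1439303_PM_at differed by 0.96 and 0.89. Ccdc77 (0.84) and Jun (0.76) differed from midbrain. Chil4 (-2.56), Chil3 (-2.33), 1449077_PM_at (-2.29) and Mmp8 (-2.17) differed from spinal cord.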

How the results depend on the processing

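The count of 247 probe sets moved to 72 with the 6 arrays alone, 822 with the 36 arrays of nervous tissue, 792 with array weights, 418 without dim probe sets and 101 at an adjusted p under 0.01. Leaving out 1 mouse gave 109 to 310, with 109 without KO 122972 and 143 without WT 1. Against the WT cerebellum of 6 months, chosen after seeing the data, with the same KO arrays, it was 129, of which 41 were among the 247. Of the 165 higher ones 21 were called again with the same sign, and of the 82 lower ones 20. The median changes of these 2 sets were 0.15 and -0.28 there, against 0.58 and -0.66. The split was 165 higher and 82 lower (66.8% higher), against 120 and 114 (51.3%) with arrays centred and 119 and 110 (52%) with quantiles set again within each tissue. The difference between the ages moved from 26 to 8 with the 12 cerebellum arrays, 78 with nervous tissue alone, 122 with array weights and 12 at the stricter threshold, that from spinal cord moved from 20 to 52 with nervous tissue alone, 103 with array weights and 9 without dim probe sets, and that from midbrain moved from 6 to 28 with nervous tissue alone, 98 with array weights, 15 without dim probe sets, 3 with arrays centred, 3 at the stricter threshold and 3 without chromosome 6. Leaving out 1 mouse gave 16 to 34, 14 to 26 and 3 to 9. The cause of these shifts was not tested. With the mouse as a replicate block (consensus correlation 0.03) the counts were 251, 28, 20 and 7, and no count moved by over 1.5 times. Against the WT cerebellum of 6 months the sign turned at 58 of the 247. Among them were Nnt (0.13 and 0.20), Slc7a3 (-0.092), Rasal1 (0.20), Gabra2 (0.24 and 0.46), Kcnab3 (0.072), Gars (-0.025), Sult1a1 (-0.10), Sesn2 (-0.205), Sars (-0.098), Slc25a37 (-0.18), Mkrn1 (0.043), 1427820_PM_at (0.003) and 1455444_PM_at (0.58). Of 74 called named probe sets, 33 were called under every alternative but the one chosen later, and 41 lost the call under at least 1.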
